A study of Homo sapiens with 16 samples.

Results

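The genes described here encode the proteasome and the proteins that assemble and switch it. They were chosen by name: every gene whose symbol begins with PSMA, PSMB, PSMC, PSMD, PSME, PSMF or PSMG followed by a digit, without pseudogenes, antisense transcripts and other non-coding symbols. Of 62069 gene identifiers in the count table, 99 carried a symbol with those letters, 50 of these were left out, and 49 remained. Of the 49, 42 encode subunits, assembly chaperones, activators or the inhibitor and are called core genes below. A further 3 encode the catalytic subunits of the immunoproteasome (PSMB8, PSMB9 and PSMB10) and are described apart. PSMA8, a germline subunit, and PSMB11, a thymus subunit, had 0 and 5 counts over all libraries and were not tested. PSMC3IP and PSME3IP1 fit the letters of the rule but encode interacting proteins, so they never enter a count of core genes. PSMB3 had no matched identifier and was not analysed here.

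RNA was measured in IMR90 ER:RAS cells, a human lung fibroblast line in which RAS is joined to an oestrogen receptor domain, so that 4-hydroxytamoxifen (4OHT) switches RAS on. All 4 groups carry ER:RAS and hold 4 libraries each: vector cells labelled non-senescent (EV, replicates 49 to 52), vector cells given 4OHT and labelled senescent (EV_4OHT, replicates 53 to 56), and cells given 4OHT with the short hairpin shAHCY_2 (replicates 57 to 60) or shAHCY_4 (replicates 61 to 64) against AHCY. AHCY is the enzyme that breaks down S-adenosylhomocysteine, the by-product of cellular methylation. Cells were at passage 15 and day 6 of the experiment, and the 4OHT dose was 100 nM, per the labels. No group has 4OHT without ER:RAS, and no group has a hairpin without 4OHT, so a comparison of EV_4OHT with EV holds the drug and active RAS together. No group carries a control hairpin that does not target AHCY. Loss of AHCY and the presence of a hairpin therefore cannot be told apart. Whether the 4 libraries of a group are separate cultures is not stated in the labels; every p-value therefore reflects library-to-library spread only, part of which may be technical.

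The proteasome is the protease that degrades proteins tagged with ubiquitin. Its 20S core is a barrel of outer alpha rings, which gate the entrance, and inner beta rings, which hold the catalytic sites of PSMB5, PSMB6 and PSMB7. The 19S cap, made of a ring of PSMC ATPases and a set of PSMD non-ATPase subunits, receives ubiquitinated proteins, removes the ubiquitin and unfolds the substrate. Interferon induces PSMB8, PSMB9 and PSMB10, which take the places of PSMB5, PSMB6 and PSMB7 and alter the peptides made for antigen presentation. The same stimulus induces the PA28 activator of PSME1 and PSME2. Genes of the standard proteasome are known to be raised together by the transcription factor NFE2L1 when proteasome activity falls short.

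Depth was 8236199 to 18235787 counts per library. The share of counts taken by core genes was 0.976% to 1.035% among EV libraries and 1.071% to 1.142% among EV_4OHT libraries, while hairpin libraries had 1.114% to 1.19% (shAHCY_2) and 1.141% to 1.216% (shAHCY_4). AHCY, the hairpins' target, stood at 114 ± 11.3 CPM in EV (read counts brought to a common library size with TMM factors, mean ± SD, n = 4), 164 ± 8.08 in EV_4OHT, 18.5 ± 4.54 under shAHCY_2 and 14.7 ± 2.19 under shAHCY_4. Replicate 59 of shAHCY_2 stood apart. Its deviations from the mean over all libraries followed the GC content of genes, with a rank correlation of -0.535 across genes. The other libraries lay between -0.266 and 0.281. Calls of members with shAHCY_2 are therefore also given without replicate 59. Of the 49 genes, 47 passed the filter on low counts, all 42 core genes among them.

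Per kilobase of annotated exon, levels of core genes in EV ran from 1.68 ± 0.227 CPM for PSMG2 to 570 ± 38.5 for PSMB1. The beta-ring genes PSMB1, PSMB7, PSMB6 and PSMB5, at 570, 382, 379 and 335 CPM per kilobase, were among the highest, and PSMB7 and PSMB6 differed by less than their SDs. The assembly chaperones, which leave the particle once it is built, lay below these beta-ring genes, at 1.68 to 97.2. Subunits of the particle lay in that range as well, among them PSMA5 (44.4), PSMB2 (45.1) and PSMD12 (50.2). Exons of PSMC1, PSMA6 and PSMA2 overlap those of another gene over 82.2%, 63.9% and 54.1% of their length, and the counting may have dropped or shared reads there, so the levels of these genes are uncertain. The immunoproteasome genes lay at 23.1 ± 1.59 (PSMB8), 12.7 ± 1.91 (PSMB9) and 7.28 ± 0.778 (PSMB10) CPM per kilobase in the same cells.

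With 4OHT, genes of the standard proteasome rose more often than fell, by modest amounts, while the immunoproteasome and its activator fell. Of 42 core genes, 22 (52.4%) were higher and 3 (7.14%) lower in EV_4OHT than in EV by edgeR's quasi-likelihood test with a Benjamini-Hochberg adjusted p under 0.05. The 3 called lower were PSMC3 and the genes of that activator, PSME1 and PSME2, which the 42 include. Over all 13526 genes tested, 26.7% were called higher and 26.8% lower. The median log2 fold change was 0.20 over the core genes and -0.02 over all genes. The largest rise was 0.84, less than a doubling, and 17 core genes were not called. Summed over the core genes, the level went from 9550 ± 314 CPM in EV to 11600 ± 469 in EV_4OHT. The count rests in part on the scaling: with library totals alone, 13 core genes were called higher and 6 lower, the median over all genes was -0.13 and that of the core genes 0.09.

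**Figure D1:**
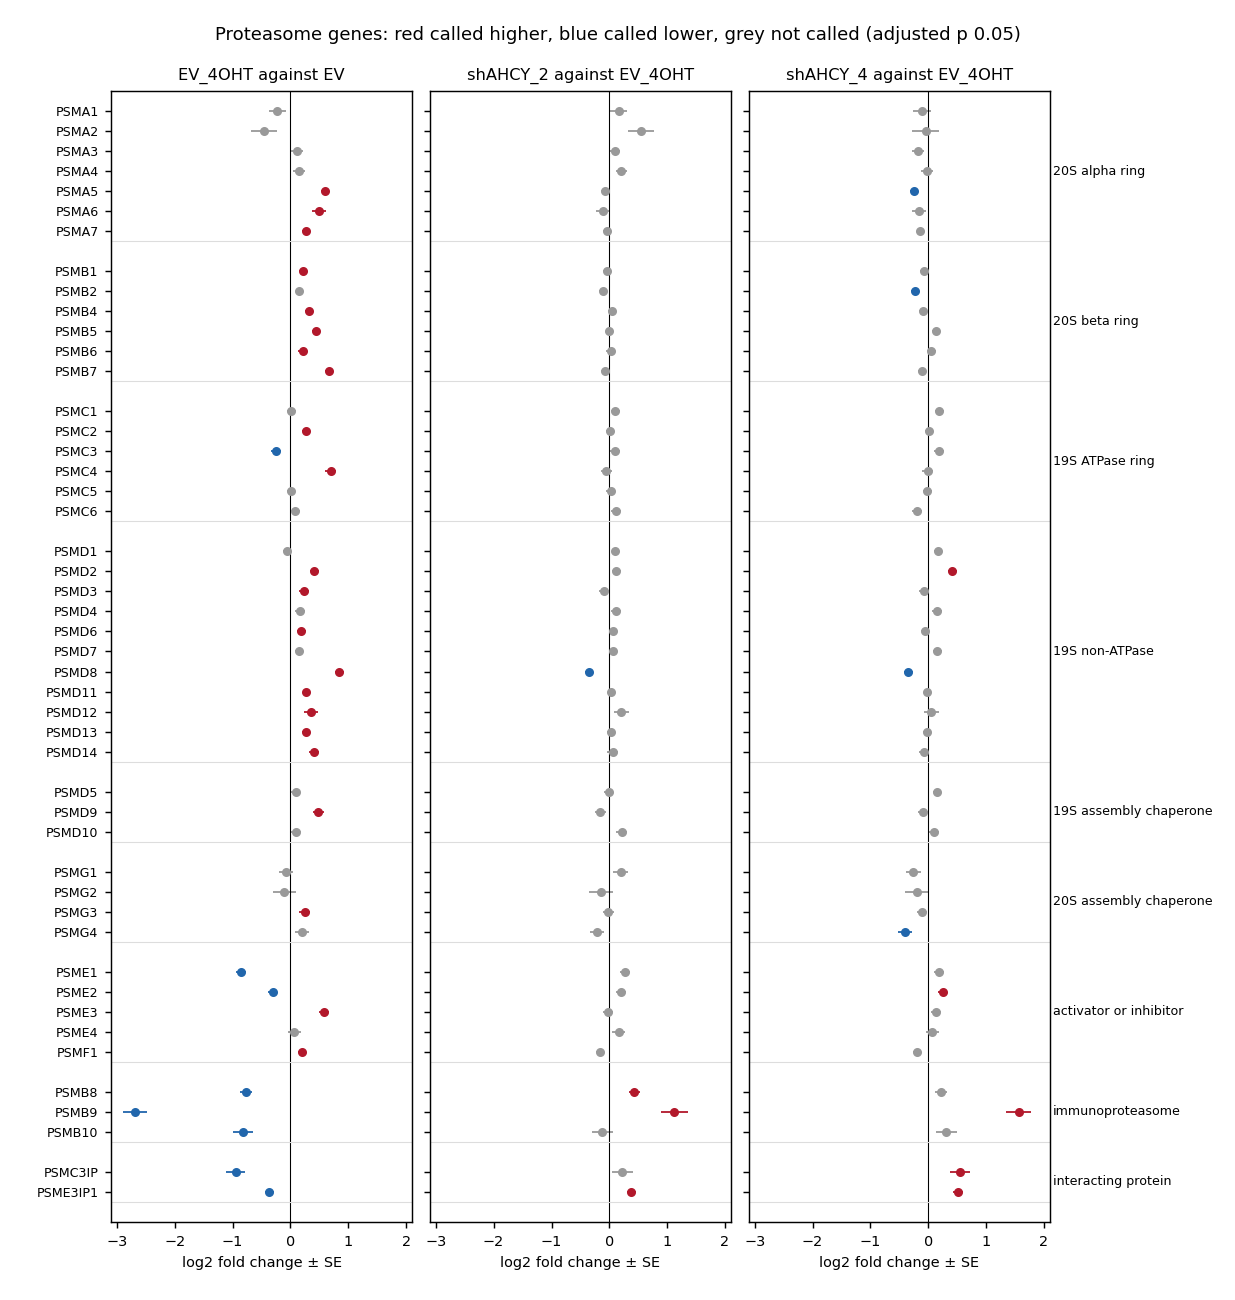
Log2 fold change (horizontal axis, with its standard error as bars) of each of the 47 tested genes (vertical axis, grouped by role) in 3 comparisons. In EV_4OHT against EV most coloured points of the standard proteasome lie to the right of 0 and the immunoproteasome points to the left, down to -2.69 for PSMB9; in both hairpin comparisons most points are grey and lie near 0.

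Within the 20S core, 5 of 6 beta-ring genes (83.3%) and 3 of 7 alpha-ring genes (42.9%) rose, against 26.7% of all genes, and none fell, against 26.8%. PSMB7, the trypsin-like catalytic subunit, measured 369, 363, 359 and 405 CPM in the EV libraries and 598, 651, 550 and 585 in EV_4OHT. Every EV_4OHT library lay above every EV library, and the log2 fold change was 0.67 ± 0.07 (SE, edgeR adjusted p = 1.9e-08). PSMB5, the chymotrypsin-like subunit and the main target of the drug bortezomib, measured 489, 479, 471 and 523 CPM in EV and 687, 693, 628 and 660 in EV_4OHT, again without overlap, a log2 fold change of 0.44 ± 0.07 (edgeR adjusted p = 5e-06). The caspase-like subunit PSMB6 measured 310, 322, 319 and 370 CPM in EV and 389, 415, 349 and 373 in EV_4OHT. Its groups overlapped, and its change of 0.21 ± 0.08 (edgeR adjusted p = 0.026) lost its call without any of EV replicates 49, 50 and 51 and EV_4OHT replicates 53 and 54, with values from 0.15 to 0.21. The call was also lost with upper-quartile factors, library totals alone or the GC trend removed. The structural beta subunits PSMB4 and PSMB1 rose by 0.33 and 0.22. PSMB2, also structural, measured 207, 211, 218 and 239 CPM in EV and 238, 257, 225 and 254 in EV_4OHT, groups that overlapped, with a log2 difference of 0.16 that did not pass (edgeR adjusted p = 0.058).

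**Figure D2:**
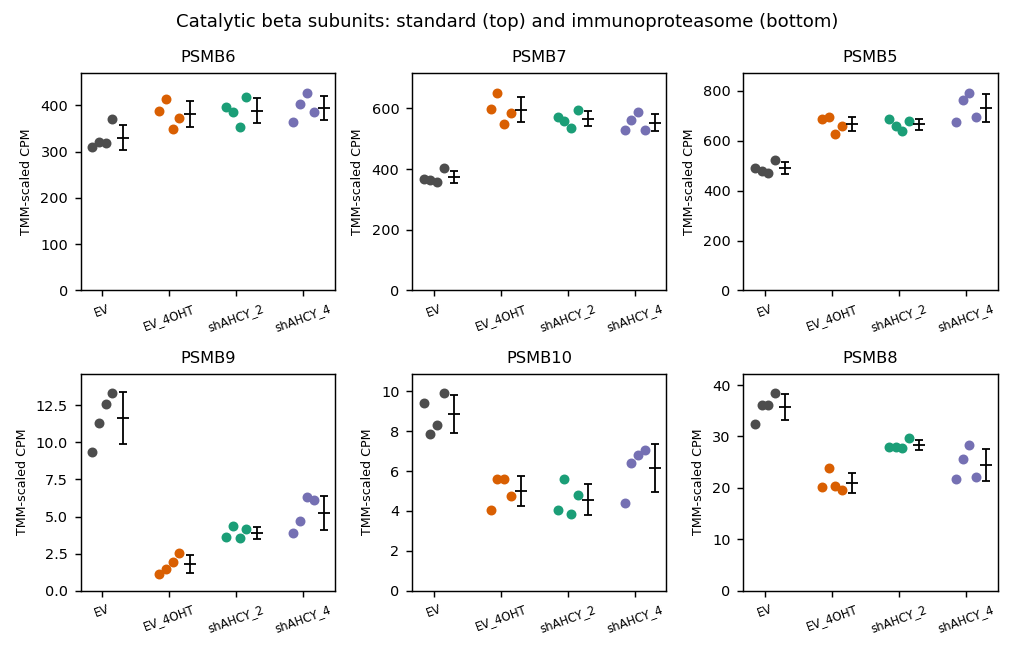
TMM-scaled CPM (vertical axis, linear from 0) of the standard catalytic subunits PSMB6, PSMB7 and PSMB5 above the immunoproteasome subunit that replaces each, by group; points are libraries in the order of their replicate numbers, bars the mean ± SD (n = 4). The means of the upper panels are higher in EV_4OHT than in EV, with overlapping libraries for PSMB6. Those of the lower panels are lower, with PSMB9 falling from 11.7 to 1.79 CPM.

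In the alpha ring, which has no catalytic site, PSMA5 showed the largest rise. It measured 196, 197, 190 and 224 CPM in EV and 305, 321, 285 and 312 in EV_4OHT, without overlap, a log2 fold change of 0.60 ± 0.07 (edgeR adjusted p = 9.3e-08). PSMA6 and PSMA7 rose by 0.50 and 0.27, PSMA6 with the overlapping exons named above. The other 4 alpha genes had differences between -0.46 (PSMA2) and 0.15 (PSMA4) and were not called. PSMA2 spread from 17.3 to 45.3 CPM among the EV libraries alone, and its SE was 0.23, the largest of the core genes.

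In the 19S cap, 8 of 11 non-ATPase genes (72.7%) rose and none fell. Of the 6 ATPase genes, 2 (33.3%) rose and 1 (16.7%) fell, beside 26.7% and 26.8% of all genes. PSMD8, a non-ATPase subunit of the lid, had the largest rise of all core genes. It measured 303, 298, 284 and 340 CPM in EV and 553, 574, 532 and 540 in EV_4OHT, without overlap, a log2 fold change of 0.84 ± 0.07 (edgeR adjusted p = 2.2e-09). PSMD2, a large scaffold subunit and the most abundant core gene by CPM, measured 1050, 882, 786 and 947 CPM in EV and 1300, 1210, 1220 and 1150 in EV_4OHT, a rise of 0.41 ± 0.08 (edgeR adjusted p = 0.00016). Its libraries did not overlap between the groups. PSMD14, the deubiquitinase of the lid, rose by 0.41 ± 0.09 (edgeR adjusted p = 0.00043). The calls of PSMD3, PSMD12 and PSMD6, at 0.23, 0.35 and 0.19, were lost in 4, 5 and 7 of the 8 fits that left out a library. The ubiquitin receptor PSMD4, with PSMD1 and PSMD7, was not called, at 0.17, -0.06 and 0.15.

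Among the ATPases, PSMC4 measured 219, 209, 207 and 262 CPM in EV and 413, 364, 320 and 357 in EV_4OHT, without overlap, a log2 fold change of 0.70 ± 0.09 (edgeR adjusted p = 1.4e-06). PSMC2 rose by 0.27. PSMC3 moved the other way: it measured 368, 342, 338 and 384 CPM in EV and 312, 327, 280 and 280 in EV_4OHT, and fell by 0.26 ± 0.09 on the log2 scale (edgeR adjusted p = 0.015). All 4 EV_4OHT libraries lay below the EV libraries for this gene, and the call was lost without EV replicate 52 or EV_4OHT replicate 56, at -0.22 in both fits. The ring holds the 6 ATPases in equal number, and PSMC1, PSMC5 and PSMC6 lay between 0.01 and 0.08, not called.

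The promoters of PSMD8 and PSMA5, the lid and alpha-ring genes with the largest rises, are shown because both hold the CCAAT box (letters CCAAT, or ATTGG on the other strand), a common promoter element bound by the NF-Y factor. In windows of 300 bases, the box was in 8 of 17 core genes called higher with 4OHT (47.1%) and 8 of 19 of the rest (42.1%). PSMC4, which rose more than PSMA5, held none. The stretches run from 150 bases before to 30 after the RefSeq start (GRCh38.p14), in the direction of the gene, and capitals mark the box. PSMD8 lies at chr19:38374421-38374600 on the plus strand and PSMA5 at chr1:109426419-109426598 on the minus strand.
PSMD8: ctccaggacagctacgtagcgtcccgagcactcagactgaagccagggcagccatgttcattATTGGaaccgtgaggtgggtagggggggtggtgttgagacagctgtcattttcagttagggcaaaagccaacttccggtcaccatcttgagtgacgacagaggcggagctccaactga
PSMA5: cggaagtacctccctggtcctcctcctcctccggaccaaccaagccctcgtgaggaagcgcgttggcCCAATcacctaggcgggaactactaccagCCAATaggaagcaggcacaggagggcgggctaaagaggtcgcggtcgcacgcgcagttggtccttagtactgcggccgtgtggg

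Of the 3 chaperones that assemble the 19S base, PSMD9 rose by 0.48 ± 0.10, from 32.6 ± 3.99 CPM in EV to 45.4 ± 3.41 in EV_4OHT (n = 4 each, edgeR adjusted p = 0.00024), and PSMD5 and PSMD10 were not called, at 0.09 and 0.10. Exons of PSMD9 overlap another gene over 29.7% of their length. Of the 4 chaperones of the 20S core, PSMG3 rose by 0.24 ± 0.09 (edgeR adjusted p = 0.025) and the other 3 lay between -0.11 and 0.20. The call of PSMG3 was lost without any of EV replicates 49, 50 and 51 and EV_4OHT replicate 54, at 0.18 to 0.23, and with upper-quartile factors, library totals alone or no low-count filter. PSMG4, which pairs with PSMG3, measured 15.7, 18, 19.8 and 19.7 CPM in EV and 19.7, 24.4, 19.7 and 20.4 in EV_4OHT, groups that overlapped, with a difference of 0.20 (edgeR adjusted p = 0.16).

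The activators divided. PSME3, the nuclear PA28-gamma activator, measured 307, 251, 238 and 290 CPM in EV and 420, 421, 390 and 390 in EV_4OHT, and rose by 0.58 ± 0.08 on the log2 scale (edgeR adjusted p = 5e-06). PSME1, the interferon-inducible PA28-alpha, measured 137, 155, 155 and 174 CPM in EV and 81.6, 97.3, 79.9 and 83.9 in EV_4OHT. The groups were apart for both genes, and the share of all genes without overlap is not given here. PSME1 fell by 0.86 ± 0.08 on the log2 scale (edgeR adjusted p = 1.3e-08), to 55.3% of its EV mean. Its partner PSME2, PA28-beta, measured 155, 159, 176 and 189 CPM in EV and 136, 146, 122 and 143 in EV_4OHT, without overlap, and fell by 0.31 ± 0.08 (edgeR adjusted p = 0.0023). Per kilobase, PSME1 went from 213% ± 33.7 of the PSME3 level in EV to 77.9% ± 5.82 in EV_4OHT (SD, n = 4). The lengths used are all annotated exons, 1221 bases for PSME1 and 4499 for PSME3. By CPM, PSME1 lay below PSME3 in EV too (means of 155 and 272), so their order there depends on the length used. PSME4 was not called, at 0.07, and the inhibitor PSMF1 rose by 0.20, a call lost without EV replicate 49 or 51, at 0.16 in both fits. The PSMF1 call was also lost with upper-quartile factors, library totals alone or no low-count filter.

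The immunoproteasome genes all fell, where 26.8% of all genes were called lower. PSMB9 measured 9.33, 11.3, 12.6 and 13.3 CPM in EV and 1.16, 1.49, 1.94 and 2.56 in EV_4OHT, a log2 fold change of -2.69 ± 0.21 (edgeR adjusted p = 3.3e-10). The EV_4OHT libraries held 14 to 34 reads of it and the EV libraries 150 to 239, so the lower level rests on few reads. PSMB8 measured 32.4, 36.1, 36.1 and 38.4 CPM in EV and 20.1, 23.9, 20.4 and 19.6 in EV_4OHT, and fell by 0.77 ± 0.10 (edgeR adjusted p = 1.1e-06). PSMB10 measured 9.4, 7.85, 8.3 and 9.9 CPM in EV and 4.07, 5.58, 5.62 and 4.74 in EV_4OHT, and fell by 0.82 ± 0.17 (edgeR adjusted p = 0.00027). None of the 3 had overlapping groups, and the share of all genes without overlap is not given here. Exons overlap another gene over 8.65% of the length for PSMB8, 15.1% for PSMB9 and 30.7% for PSMB10.

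Set against the subunit each replaces, the immunoproteasome genes were minor in every group. Per kilobase, PSMB8 stood at 6.89% ± 0.437 of PSMB5 in EV and 2.98% ± 0.23 in EV_4OHT (SD, n = 4). PSMB9 stood at 3.34% ± 0.37 of PSMB6 in EV and 0.45% ± 0.169 in EV_4OHT. PSMB10 stood at 1.9% ± 0.133 of PSMB7 in EV and 0.678% ± 0.114 in EV_4OHT. For each pair the highest EV_4OHT library lay below the lowest EV library. These are RNA ratios and were not tested apart from the genes themselves.

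The promoters of PSMB9, PSMB10, PSME1 and PSME2 are shown because these genes fell while the standard proteasome rose; no sequence is shown for PSMB8, whose window of 300 bases held none of the 4 motifs searched. In capitals are the core of the interferon-stimulated response element, searched as GAAA, any 2 bases and GAAA, or on the other strand TTTC, any 2 bases and TTTC, and the core of the antioxidant response element, searched as TGACNNNGC or GCNNNGTCA, to which NFE2L1 and NFE2L2 bind. The stretches span 150 bases before to 30 after the RefSeq start (GRCh38.p14): PSMB9 at chr6:32854042-32854221 on the plus strand, PSMB10 at chr16:67936821-67937000 on the minus strand, PSME1 at chr14:24136044-24136223 on the plus strand and PSME2 at chr14:24146581-24146760 on the minus strand.
PSMB9: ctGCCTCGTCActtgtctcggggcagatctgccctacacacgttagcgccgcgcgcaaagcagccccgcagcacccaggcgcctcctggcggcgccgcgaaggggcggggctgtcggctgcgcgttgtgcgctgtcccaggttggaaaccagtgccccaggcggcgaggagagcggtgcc
PSMB10: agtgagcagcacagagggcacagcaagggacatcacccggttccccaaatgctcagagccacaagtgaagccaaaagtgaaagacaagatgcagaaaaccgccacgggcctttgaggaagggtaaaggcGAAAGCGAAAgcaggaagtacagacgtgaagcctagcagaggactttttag
PSME1: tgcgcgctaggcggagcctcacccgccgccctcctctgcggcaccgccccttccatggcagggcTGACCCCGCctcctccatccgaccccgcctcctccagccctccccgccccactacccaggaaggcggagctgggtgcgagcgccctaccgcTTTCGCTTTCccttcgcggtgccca
PSME2: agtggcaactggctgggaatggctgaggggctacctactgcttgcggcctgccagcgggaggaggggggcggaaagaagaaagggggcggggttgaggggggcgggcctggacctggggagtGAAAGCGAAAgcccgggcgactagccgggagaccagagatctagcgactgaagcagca

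PSMB10, PSME1 and PSME2 held the same 10 letters of the interferon element, PSME1 on the opposite strand and after its start. Genes that did not fall held the core as well: PSMG4, not called with 4OHT, had the same 10 letters, PSMB4, which rose, and PSMA4, not called, had other matches, and TAP1, which rose, had 2. In windows of 300 bases (250 before to 50 after the start), the interferon core was found in 3 of the 5 promoters of PSMB8, PSMB9, PSMB10, PSME1 and PSME2, in 5 of 36 core promoters that had a RefSeq window (13.9%, PSME1 and PSME2 among them), and in 3.65% of 27305 promoters of all genes. The antioxidant core was in 11 of 36 core promoters (30.6%), against 13.6% of all promoters, and the CCAAT box in 16 of 36 (44.4%), against 35.7%. Among the core genes called higher with 4OHT, 4 of 17 held the antioxidant core, and among the rest 7 of 19 did. A letter match describes the sequence and shows neither a bound site nor a cause. PSMB9 starts 488 bases from TAP1, which encodes a peptide transporter subunit and is read from the other strand. The 2 interferon cores of TAP1, at -134 and -128 from its start, lie between the starts of the genes. They fall outside the window searched for PSMB9, so the count of 3 of 5 leaves them out. PSMB9 fell while TAP1 rose by 0.40 ± 0.11 on the log2 scale, from 37.2 to 51.8 CPM in EV to 56.2 to 63.1 in EV_4OHT (n = 4, edgeR adjusted p = 0.0027).

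The interacting proteins fell with 4OHT as well, where 26.8% of all genes were called lower. PSMC3IP, a meiotic recombination factor, measured 12.8, 10.7, 10.5 and 9.16 CPM in EV and 6.98, 6.13, 4.55 and 4.81 in EV_4OHT, and fell by 0.95 ± 0.17 on the log2 scale (edgeR adjusted p = 5.5e-05). Exons of MLX overlap 49.9% of its length. PSME3IP1, which binds the PSME3 activator, measured 64.7, 57.5, 68.3 and 70.5 CPM in EV and 46.5, 55.2, 49.7 and 51.3 in EV_4OHT, and fell by 0.37 ± 0.08 (edgeR adjusted p = 0.0005). The groups were apart for both, and the share of all genes without overlap is not given here.

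**Figure D3:**
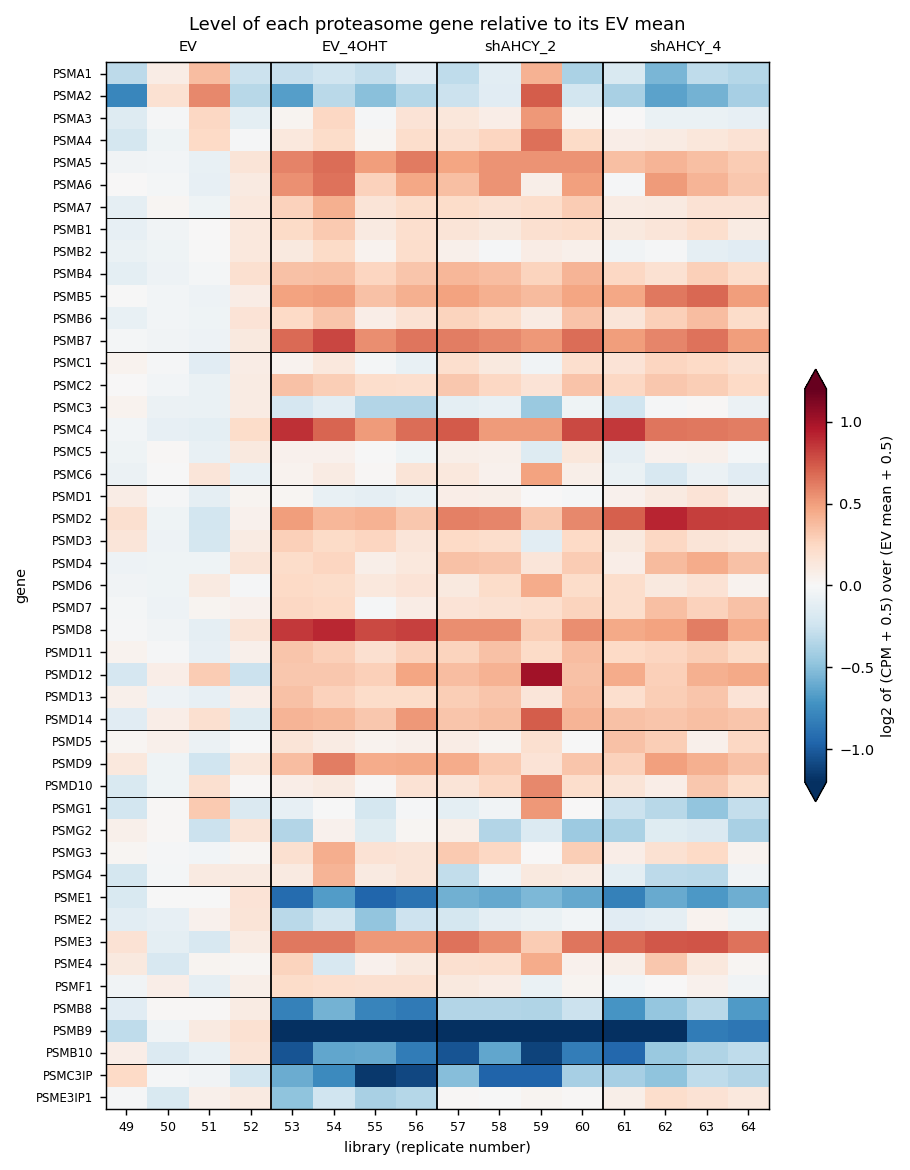
Colour shows log2 of (CPM + 0.5) over (EV mean + 0.5) for each of the 47 tested genes (rows, by role) in each of the 16 libraries (columns, by replicate number); colours saturate at 1.2 in either direction, which PSMB9 exceeds with 4OHT. The rows of PSMD8, PSMC4 and PSMB7 are red in all 12 libraries given 4OHT, those of PSME1, PSMB9 and PSMC3IP are blue, and libraries 51 and 59 differ from their groups for PSMA2, PSMG1 and PSMD12.

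The hairpin comparisons ask what a hairpin against AHCY adds in cells given 4OHT, and each sets it against the same 4 EV_4OHT libraries. Because they share these controls with each other and with the 4OHT comparison, agreement between them is not independent. The standard proteasome moved little. With shAHCY_2, 0 of 42 core genes were called higher and 1 was called lower, PSMD8, against 3.91% and 3.07% of all genes. At an unadjusted p under 0.05, 7 core genes passed in either direction, beside 21.8% of all genes. DESeq2 called 1 core gene higher, PSME1, and limma-voom called 0. With shAHCY_4, 2 of 42 were called higher (PSMD2 and PSME2) and 4 lower (PSMD8, PSMA5, PSMB2 and PSMG4), against 7.58% and 6.86% of all genes, and 13 had an unadjusted p under 0.05, beside 27.6% of all genes. The median over core genes was 0.03 with shAHCY_2 and -0.04 with shAHCY_4, and 0.01 over all genes in both comparisons. The summed core level was 11700 ± 142 CPM with shAHCY_2 and 11800 ± 325 with shAHCY_4, beside 11600 ± 469 in EV_4OHT.

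PSMD8 was the only core gene called with both hairpins, and 1.99% of all genes were called lower with both. It measured 452, 450, 376 and 450 CPM with shAHCY_2 and 421, 428, 470 and 416 with shAHCY_4, all below the 532 to 574 of EV_4OHT. The log2 fold change was -0.35 ± 0.07 (edgeR adjusted p = 0.0042) with shAHCY_2 and -0.34 ± 0.07 (edgeR adjusted p = 0.0028) with shAHCY_4. The lowest value, 376, is that of replicate 59, and without that library the change with shAHCY_2 was -0.29 ± 0.07 (edgeR adjusted p = 0.0089). The gene's mean was 180% of its EV mean in EV_4OHT, 141% with shAHCY_2 and 142% with shAHCY_4.

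With shAHCY_4, PSMD2 measured 1510, 1730, 1630 and 1620 CPM, above every EV_4OHT library (1150 to 1300), a rise of 0.41 ± 0.08 on the log2 scale (edgeR adjusted p = 0.0011). With shAHCY_2 it measured 1390, 1380, 1150 and 1370 CPM, which overlapped EV_4OHT, a difference of 0.12 ± 0.08 that was not called (edgeR adjusted p = 0.41). The low value, 1150, is again that of replicate 59, and without it the difference was 0.18 ± 0.07 (edgeR adjusted p = 0.18).

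The smaller calls with shAHCY_4 depended on single libraries. PSMA5 measured 259, 268, 259 and 249 CPM and fell by 0.24 ± 0.07 (edgeR adjusted p = 0.017). PSMB2 measured 213, 216, 203 and 199 CPM and fell by 0.23 ± 0.07 (edgeR adjusted p = 0.025). PSMG4 measured 16.8, 14.6, 14.5 and 17.7 CPM and fell by 0.40 ± 0.12 (edgeR adjusted p = 0.027). All 3 lay below the range of EV_4OHT, and the share of all genes without overlap is not given here. All 3 lost their call without EV_4OHT replicate 54, with values of -0.22, -0.21 and -0.33. PSMA5 also lost it without shAHCY_4 replicate 64, PSMB2 without EV_4OHT replicate 56 or shAHCY_4 replicates 63 or 64, and PSMG4 without shAHCY_4 replicates 62 or 63. Library totals alone or no low-count filter ended the calls of PSMA5 and PSMB2, and removing the GC trend that of PSMA5. With shAHCY_2, PSMA5 measured 280, 293, 294 and 293 CPM, PSMB2 measured 228, 216, 232 and 228 and PSMG4 measured 14.8, 17.8, 19.9 and 19.6, with log2 differences of -0.08, -0.11 and -0.22 that were not called.

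Of the 2 activator genes that fell with 4OHT, PSME2 was called higher with shAHCY_4, and the other 3 differences of PSME1 and PSME2 from EV_4OHT were not called. PSME2 measured 154, 158, 175 and 164 CPM with shAHCY_4 against 122 to 146 in EV_4OHT, and rose by 0.25 ± 0.08 (edgeR adjusted p = 0.039). That call was lost without any of EV_4OHT replicates 53, 55 and 56 and shAHCY_4 replicates 62, 63 and 64, with values of 0.20 to 0.27. Upper-quartile factors or no low-count filter ended it too. With shAHCY_2, PSME2 measured 147, 157, 161 and 166 CPM, a difference of 0.20 ± 0.08 that was not called (edgeR adjusted p = 0.14). PSME1 measured 104, 101, 107 and 101 CPM with shAHCY_2, above every EV_4OHT library, at 0.27 ± 0.08 (edgeR adjusted p = 0.054). It was called by DESeq2, with library totals alone, with the GC trend removed, and without EV_4OHT replicate 54 (0.34). With shAHCY_4, PSME1 measured 88.3, 102, 96.3 and 103 CPM, which overlapped the 79.9 to 97.3 of EV_4OHT, a difference of 0.19 ± 0.08 (edgeR adjusted p = 0.15).

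**Figure D4:**
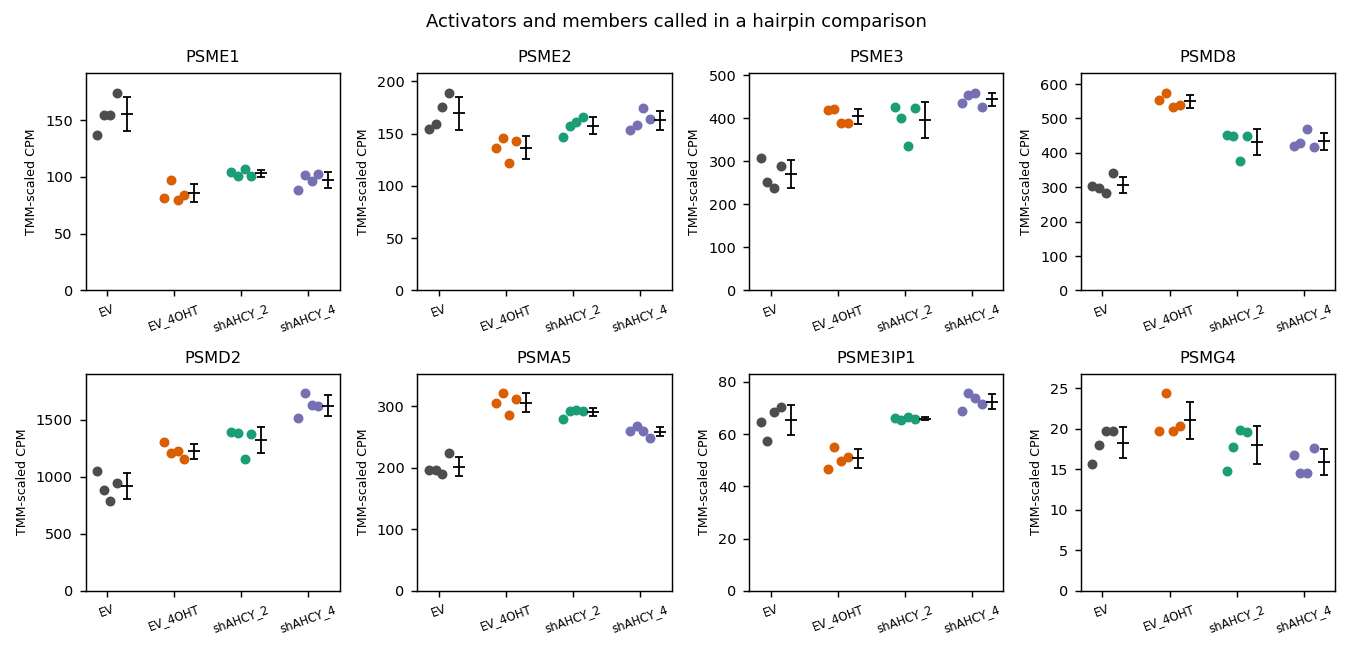
TMM-scaled CPM (vertical axes, linear from 0) by group of the PA28 activators PSME1, PSME2 and PSME3, of PSME3IP1, and of 4 core genes called in a hairpin comparison; points are libraries in the order of their replicate numbers, bars the mean ± SD (n = 4). PSMD8 lies lower with both hairpins (432 and 434 CPM) than in EV_4OHT (550 CPM), PSME3IP1 lies higher (65.9 and 72.4 against 50.7 CPM), and PSMD2 is highest with shAHCY_4 (1620 CPM).

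Of the immunoproteasome genes, PSMB9 rose with both hairpins. It measured 3.61, 4.36, 3.53 and 4.17 CPM with shAHCY_2 and 3.9, 4.7, 6.29 and 6.14 with shAHCY_4. All 8 libraries lay above the EV_4OHT range of 1.16 to 2.56 and below the EV range of 9.33 to 13.3. The log2 fold change against EV_4OHT was 1.12 ± 0.23 (edgeR adjusted p = 0.0033) with shAHCY_2 and 1.56 ± 0.22 (edgeR adjusted p = 3.8e-05) with shAHCY_4, and 2.97% of all genes were called higher with both. Without replicate 59 the first value was 1.17 ± 0.24 (edgeR adjusted p = 0.0032). PSMB8 measured 27.9, 27.9, 27.8 and 29.8 CPM with shAHCY_2, above every EV_4OHT library, a rise of 0.43 ± 0.10 (edgeR adjusted p = 0.0099), and 0.44 ± 0.11 without replicate 59 (edgeR adjusted p = 0.013). With shAHCY_4 it measured 21.7, 25.7, 28.4 and 22.2 CPM, which overlapped EV_4OHT, a difference of 0.22 ± 0.10 that was not called (edgeR adjusted p = 0.16). PSMB10 measured 4.07, 5.58, 3.84 and 4.78 CPM with shAHCY_2 and 4.38, 6.38, 6.81 and 7.06 with shAHCY_4, both overlapping EV_4OHT, with differences of -0.12 ± 0.18 and 0.31 ± 0.17 that were not called. Per kilobase, PSMB9 stood at 0.955% ± 0.0866 of PSMB6 with shAHCY_2 and 1.25% ± 0.235 with shAHCY_4 (SD, n = 4).

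The standard catalytic subunits gave no call with either hairpin. PSMB5 measured 686, 658, 639 and 680 CPM with shAHCY_2 and 675, 761, 791 and 693 with shAHCY_4, with differences from EV_4OHT of -0.00 ± 0.07 and 0.13 ± 0.07. PSMB6 measured 397, 386, 353 and 418 CPM with shAHCY_2 and 365, 403, 427 and 386 with shAHCY_4, with differences of 0.03 ± 0.08 and 0.05 ± 0.08. PSMB7 measured 573, 558, 537 and 595 CPM with shAHCY_2 and 530, 563, 587 and 530 with shAHCY_4, with differences of -0.08 ± 0.07 and -0.11 ± 0.07. The 95% intervals of these 6 differences lay within -0.24 and 0.26 on the log2 scale. PSMC4 overlapped EV_4OHT as well, at 373, 320, 319 and 388 CPM with shAHCY_2 and 403, 351, 349 and 344 with shAHCY_4.

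PSME3IP1 rose with both hairpins. It measured 66.1, 65.2, 66.7 and 65.7 CPM with shAHCY_2 and 68.7, 75.6, 73.8 and 71.5 with shAHCY_4, all above the EV_4OHT range of 46.5 to 55.2. The log2 fold change was 0.38 ± 0.08 (edgeR adjusted p = 0.0041) with shAHCY_2, 0.37 ± 0.09 without replicate 59 (edgeR adjusted p = 0.0064), and 0.52 ± 0.08 (edgeR adjusted p = 0.0001) with shAHCY_4. PSMC3IP measured 7.4, 5.29, 5.29 and 8.06 CPM with shAHCY_2, which overlapped EV_4OHT, a difference of 0.23 ± 0.18 (edgeR adjusted p = 0.49), and 8.04, 7.57, 8.66 and 8.37 with shAHCY_4, which did not overlap, a rise of 0.55 ± 0.17 (edgeR adjusted p = 0.038). The call with shAHCY_4 was lost in 7 of the 8 fits that left out a library, EV_4OHT replicate 53 being the exception, with values of 0.46 to 0.66 over the 8.

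Between the hairpins, 0 of 42 core genes and 0 of 3 immunoproteasome genes were called by edgeR, where 0.54% of all genes were called higher with shAHCY_4 than with shAHCY_2 and 0.702% lower. At an unadjusted p under 0.05, 8 core genes passed, beside 17.9% of all genes. DESeq2 called PSMD2 higher and PSMC6 and PSMG1 lower, and limma-voom called none. PSMD2 differed by 0.30 ± 0.08 (edgeR adjusted p = 0.065), and all 4 shAHCY_4 libraries lay above the shAHCY_2 libraries. Without replicate 59 its difference was 0.23 ± 0.08 (edgeR adjusted p = 0.16). For the 7 alpha-ring genes the differences ran from -0.59 (PSMA2) to -0.06 (PSMA6), none called. Without replicate 59 they ran from -0.31 (PSMA2) to -0.08 (PSMA1). PSMB9 differed by 0.44 ± 0.20 and PSMB8 by -0.21 ± 0.10 (edgeR adjusted p = 0.26 and 0.28), so a difference between hairpins was not shown for either.

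Of 10 subunits, chaperones and bound enzymes outside the naming scheme, ADRM1, the ubiquitin receptor of the cap, rose with 4OHT by 0.42 ± 0.09 (edgeR adjusted p = 0.00026), USP14, a bound deubiquitinase, fell by 0.21 ± 0.08 (edgeR adjusted p = 0.04), and 8 were not called, so that 10% were called in each direction against 26.7% and 26.8% of all genes. The call of USP14 was lost in 6 of the 8 fits that left out a library, at -0.22 to -0.17, and with RLE factors, no low-count filter, the GC trend removed or DESeq2. With shAHCY_2 none of the 10 was called, 1 having an unadjusted p under 0.05. With shAHCY_4 AKIRIN2, which carries proteasomes into the nucleus, was called lower, at -0.31 ± 0.09 (edgeR adjusted p = 0.02), a call lost without EV_4OHT replicate 54 or shAHCY_4 replicates 61 or 64, at -0.31 to -0.27.

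A list of 13 genes held those that control proteasome genes, together with ZFAND5 and ZFAND2A, which act on the proteasome itself. Of the 13, 7 (53.8%) rose with 4OHT and 1 (7.69%) fell, against 26.7% and 26.8% of all genes. ZFAND5 and ZFAND2A were among the 7. When a library was left out, 6 to 8 were called higher. NFE2L1 itself was not called, at 109 ± 20.1 CPM in EV and 106 ± 6.79 in EV_4OHT (n = 4, log2 difference -0.04 ± 0.11). DDI2 and NGLY1, the protease and the glycanase that process the NFE2L1 protein, rose by 0.43 and 0.46. MAFF, a small MAF partner of such factors, rose by 0.89 ± 0.09 (edgeR adjusted p = 3.5e-08). ZFAND2A, a stress-induced protein that binds the proteasome, rose by 0.61 ± 0.10 (edgeR adjusted p = 2.9e-05). ZFAND5 rose by 0.31 (edgeR adjusted p = 0.043), a call lost in 6 of the 8 fits that left out a library. The CCAAT-box factor NF-Y had subunits in opposite directions: NFYA rose by 0.89 ± 0.09 (edgeR adjusted p = 2e-08) and NFYB fell by 0.81 ± 0.17 (edgeR adjusted p = 0.00035). None of the 13 was called with either hairpin, with 4 (shAHCY_2) and 3 (shAHCY_4) at an unadjusted p under 0.05, beside 21.8% and 27.6% of all genes.

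Of 15 ubiquitin and delivery genes, 7 (46.7%) rose with 4OHT and 2 (13.3%) fell, against 26.7% and 26.8% of all genes. When a library was left out, 5 to 6 were called higher and 2 lower. UFD1, which helps the VCP unfoldase extract substrates, rose by 0.49 ± 0.07 (edgeR adjusted p = 7.3e-06), and RPS27A, which encodes ubiquitin fused to a ribosomal protein, rose by 0.45 ± 0.10 (edgeR adjusted p = 0.00067). RAD23B and UBQLN2, shuttles that bring ubiquitinated proteins to the proteasome, fell by 0.63 and 0.32. With the hairpins none of the 15 was called higher. With shAHCY_2, 1 (6.67%) was called lower, against 3.07% of all genes, and 0 to 2 were when a library was left out, 2 being without replicate 59. With shAHCY_4, 3 (20%) were called lower, against 6.86% of all genes, RPS27A among them at -0.63 ± 0.10 (edgeR adjusted p = 0.00014).

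Of 11 antigen-processing partners of the immunoproteasome, 5 (45.5%) fell with 4OHT and 1 (9.09%), TAP1, rose, against 26.8% and 26.7% of all genes. ERAP1, the peptide-trimming aminopeptidase, fell by 1.06 ± 0.15 (edgeR adjusted p = 4.8e-06), and B2M, the light chain of class I molecules, by 0.39 ± 0.07 (edgeR adjusted p = 0.00011). TAP2 fell by 0.71, and the class I chaperones PDIA3 and CALR fell by 0.29 and 0.22. IRF1 and NLRC5, regulators of these genes, were not called, at -0.11 and -0.20. With shAHCY_2, 1 of the 11 was called higher, PDIA3 at 0.27, against 3.91% of all genes, and none lower. With shAHCY_4, 1 was higher, PDIA3 at 0.44, and 1 lower, TAPBP at -0.27, against 7.58% and 6.86%. The TAPBP call was lost in 5 of the 8 fits that left out a library, at -0.27 to -0.23.

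Marker genes moved with the 4OHT comparison. Of 8 fibroblast markers, 7 (87.5%) fell with 4OHT, against 26.8% of all genes, and none rose, against 26.7%. The summed level of the 8 was 10600 to 12300 CPM in EV libraries and 4730 to 4910 in EV_4OHT. VIM stayed uncalled at 2020 ± 41.2 and 2010 ± 34.1 CPM (n = 4). Among 5 epithelial markers KRT19 fell from 50.9 ± 4.53 to 1.44 ± 0.225 CPM, EPCAM lay at 2.44 ± 0.964 and 1.39 ± 0.457, and CDH1, KRT5 and KRT14 were at or near 0. The summed endothelial markers lay at 0.137 to 1.8 CPM in every library, with PECAM1 and CDH5 at 0. The summed leukocyte markers lay at 0.196 to 1.16 CPM, with CD3E at 0. PTPRC was at 0 in EV and 0.42 ± 0.434 CPM in EV_4OHT, 0 to 13 reads per library (edgeR adjusted p = 0.0033). With shAHCY_2 none of the fibroblast markers was called against EV_4OHT, 2 having an unadjusted p under 0.05. With shAHCY_4 COL1A1 and DCN were higher, by 0.30 and 0.20 (25% of the 8, against 7.58% of all genes). VIM was lower, at -0.22 (12.5%, against 6.86%). The DCN and COL1A1 calls were lost in 7 and 5 of the 8 fits that left out a library. The part of these markers in the proteasome results was not tested. In such bulk libraries, fewer cells of a type and less RNA per cell cannot be told apart.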

How the data were processed

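RNA of 16 libraries was made into Smart-Seq2 libraries, per the labels' protocols, a method that does not mark strand. The authors deposited whole-number read counts per Ensembl gene, not normalized; per the submitters' processing notes the tools were CASAVA 1.8.2, TopHat2 2.0.11 and featureCounts 1.18.0 with hg19 (GRCh37). Annotation release and counting options: not given in the sources used here. Replicates were compared in 24 pairs: chi-square per degree of freedom was 3.15 to 36.7, so no pair was a duplicate library.

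Symbols were matched by identifier for 50127 of 62069 genes; the rest held 0.503% of counts. Exon lengths, GC content and overlaps came from GENCODE release 29, another build, so no coordinates of it are given. edgeR 4.0.16 (R 4.3.3) with filterByExpr, TMM factors and a quasi-likelihood fit to all 16 libraries tested 13526 genes (two-sided; Benjamini-Hochberg adjustment across every tested gene; threshold 0.05). The biological coefficient of variation was 11.9%. Overlap between groups was read for the genes named only, and the share of all genes without overlap is not given here. SEs are the absolute log2 fold change over the square root of F, and 95% intervals use them. Alternatives were RLE and upper-quartile factors, library totals alone, DESeq2 1.42.0, limma-voom (limma 3.58.1), no low-count filter, 10 counts in 8 libraries, the compared groups alone, a GC trend removed by a spline with 6 degrees of freedom, and leaving out each library.

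Members, lists and rules were chosen with earlier results of these data known. Values per library are given for the catalytic subunits and their immunoproteasome counterparts, for up to 4 called members per direction and comparison with the largest change and a mean log2 CPM of at least 3, and for members called with both hairpins, 16 in all; PSME3 and PSMC3, values of other members, and the motifs and printed promoters were chosen after values were seen. Other lists name up to 3 called genes per comparison by adjusted p, and further ones chosen after their values were seen. Some genes of these lists are not reported here by name. RefSeq promoters matched 43 of 49 members; motifs were searched on both strands, overlaps allowed. The gamma-activated site, TTCNNNGAA, was in 4 of 36 core promoters (11.1%) and 7.88% of all.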

Additional observations from a re-analysis of the deposited data

Results flagged for a closer look

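The 16 genes given by library were screened in each group, 64 groups of 4 in all, for a library far from the other 3, by Dixon's criterion at the 95% level. There were 6 such libraries, and chance gives about 1 in 20 groups. In shAHCY_2 replicate 59, PSMD8 was at 376 CPM against 450 to 452 in the other libraries, and PSMD2 at 1150 CPM against 1370 to 1390. The same library has the strongest GC trend (-0.535), and the part of that trend in these values was not tested; PSMD8 kept its call with shAHCY_2 without it. PSMB8 in shAHCY_2 replicate 60 was at 29.8 CPM against 27.8 to 27.9, and PSMA5 in shAHCY_2 replicate 57 at 280 CPM against 293 to 294. PSMC4 in shAHCY_4 replicate 61 was at 403 CPM against 344 to 351. PSMG4 in EV_4OHT replicate 54 was at 24.4 CPM against 19.7 to 20.4, and its fall with shAHCY_4 lost its call without that library.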

How the results depend on the processing

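No call of the 16 genes given by library reversed its direction. The balance of core calls did turn for shAHCY_4, from 2 higher and 4 lower to 6 higher and 2 lower with library totals alone. The core median of that comparison went from -0.04 to 0.02. For EV_4OHT against EV, library totals alone called 13 core genes higher and 6 lower in place of 22 and 3. The 22 became 17 with upper-quartile factors, 19 with no low-count filter and 27 with the GC trend removed. When a library was left out, 17 to 22 were called higher and 2 to 4 lower. For shAHCY_2, the 0 called higher became 1 with library totals alone (PSME1), without the low-count filter (PSMA2) and with DESeq2 (PSME1), 3 with the GC trend removed, and 0 to 1 when a library was left out. For shAHCY_4, the 2 called higher became 1 with upper-quartile factors or no low-count filter, 6 with library totals alone or the GC trend removed, 5 with the compared groups alone, and 1 to 2 when a library was left out. The 4 called lower became 2 with library totals alone or no low-count filter, 8 with the compared groups alone, and 1 to 4 when a library was left out, 1 being without EV_4OHT replicate 54. Between the hairpins, 0 higher became 1 (PSMD2) without the low-count filter, with the GC trend removed and with DESeq2, and 0 lower became 3 without the filter and 2 with the GC trend removed or DESeq2. The cause of these shifts was not tested. Among all called genes, the share called higher went from 49.9% to 38.2% for 4OHT when library totals alone were used; for the hairpins it went from 56% to 69.8% (shAHCY_2) and from 52.5% to 67.4% (shAHCY_4). For single genes, the 27 results called in the main analysis kept their call in 421 alternative fits and lost it in 38, and the 37 not called gained one in 15. PSMB9, PSME3IP1 and PSMD8 kept every call under every alternative run. No paired analysis was possible because replicate numbers are not shared between groups. Depth limits PSMB9, at 14 to 34 reads per EV_4OHT library.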
